A study of Mus musculus with 4 samples.

Results

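Intraflagellar transport and BBSome genes were taken by gene symbol from an RNA-seq series of sorted mouse testicular germ cells. The rule held the *Ift* and *Bbs* symbols with a number, the transport subunits that carry other names, the tectonic and tubby-like families, and further ciliary genes such as *Mks1*, *Arl3* and *Arl6*. It used no measured value, and 44 of the 24411 rows matched it. RNA was measured in 4 libraries, from testes at postnatal day 18, an age chosen to enrich for meiotic prophase.

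Every testis carried the *Rec8-3FH-GFP* knock-in (KI) allele, which makes GFP together with the meiotic cohesin REC8, and GFP-positive cells were sorted before RNA extraction. The 2 control libraries were labelled *Zfp541*+/-. For these controls the series describes 1 testis heterozygous and 1 homozygous for the KI allele, without saying which library is which. The other 2 libraries were labelled *Zfp541* KO and came from individual testes homozygous for the KI allele. KI dosage and *Zfp541* genotype therefore cannot be fully told apart. The strain label was a mix of C57BL/6 and CBA, whereas the study's methods place the mice on C57BL/6. ZFP541 is a zinc finger protein of spermatocytes found with histone deacetylases, and the comparison addressed what its loss does to the transcriptome of meiotic prophase cells.

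The deposited values were TPM, a transcript abundance that is corrected for length and scaled to a fixed sum per library, so sequencing depth is unknown. Levels of the targeted gene did not follow the label: controls 1 and 2 held 112 and 72.2 TPM of *Zfp541*, and the labelled KO libraries 1 and 2 held 136 and 151 TPM. The KO allele is a deletion from the first exon onward, and the paper reports that ZFP541 protein was absent from KO testis by immunoblot. A value per gene cannot tell deleted exons from remaining ones. In these libraries the direction of every difference below therefore rests on the labels alone. *Rec8*, the driver of the sort, was at 7.05 TPM in control 1 and between 19.4 and 27.9 TPM in the other libraries. The libraries also differed in marker genes of other testicular cells. The summed TPM of 6 macrophage markers was 23.2 in control 2 and 1261 to 2053 in the others, and that of 6 Leydig cell markers was 19.4 in control 2 and 392 to 3603 in the others. None of these markers was at 0 in any library. The 10 pachytene markers summed to 8554 and 4796 TPM in the controls and to 3010 and 4145 TPM in the labelled KO libraries. *Ldhc* held 3659 and 1819 against 768 and 1230 TPM of these sums, and *Meig1* 1767 and 1535 against 455 and 623 TPM. *Pgk2* and *Ccna1* were also lower in both labelled KO libraries than in both controls, *Mybl1* was higher, and the rest overlapped. For the 10 leptotene and zygotene markers the sums were 1010 and 1541 against 2388 and 2281 TPM. Among these, *Spo11* and *Stra8* overlapped between the groups and the rest were higher. The part of these markers in the results below was not tested, and in such bulk samples fewer cells of a type and less RNA per cell cannot be told apart.

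Cilia and sperm flagella are built by intraflagellar transport (IFT), in which trains of 2 protein complexes travel along microtubules under the membrane. IFT-B trains are carried outward by kinesin-2, and IFT-A is needed for the return by dynein-2 and for the entry of membrane proteins. The BBSome is a coat-like complex that rides on these trains and carries membrane proteins out of the cilium, while transition zone proteins form the gate at its base. Spermatocytes make many such transcripts before the flagellum is assembled in spermatids.

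Promoters of ciliary genes are known for the X-box, the site read by RFX factors, made of the arms GTTNCC and GGNAAC. RefSeq windows from 250 bases before to 50 after the gene start (GRCm38.p6) were found for 38 members, as 44 windows. Members such as *Ift80*, *Ift81*, *Ift122* and *Dync2li1* had no window in the table used. A pair of arms 0 to 3 bases apart, a pattern that reads the same on both strands, was present in 5 of the 44 windows (11.4%), against 0.804% of all 32851 windows. These stretches are shown because they carry the most complete X-box letters among the members, with the paired arms and the bases between them in capitals:

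Bbs7, chr3:36613489-36613518, minus strand: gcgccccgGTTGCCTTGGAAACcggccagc

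Tctn1, chr5:122264411-122264432, minus strand: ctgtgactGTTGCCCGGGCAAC

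Mks1, chr11:87853183-87853212, plus strand: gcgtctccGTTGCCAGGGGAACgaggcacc

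Ift57, chr16:49699226-49699254, plus strand: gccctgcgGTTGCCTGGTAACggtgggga

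Tctn3, chr19:40612351-40612379, minus strand: tcccagcgGTTGCCAGGTAACgggaacca

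A single arm, GTTGCC or its complement GGCAAC, was searched on both strands and was present in 17 of the 44 member windows (38.6%) against 12.5% of all windows, and these matches include all 5 paired ones above. The median GC content was 59.0% in the member windows and 52.7% in all windows. The following stretches come from members whose levels are described below, with the single arm in capitals:

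Ift27, chr15:78174077-78174098, minus strand: tgatgatgGTTGCCaggagcct

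Tctn2, chr5:124598754-124598775, plus strand: gattggtgGTTGCCatggctgc

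Traf3ip1, chr1:91494581-91494602, plus strand: gcgcgtccGTTGCCaaggccgc

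Dync2h1, chr9:7177009-7177030, minus strand: cggagcttGGCAACtgctgagt

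The *Dync2h1* stretch lies near a RefSeq start that is inside the GENCODE span of the gene given below. A match to these letters is a description and not a bound site. Of the genes printed here, *Ift27* and *Tctn2* were lower and *Traf3ip1* and *Tctn1* higher in both libraries labelled KO than in both controls, and in the others the groups overlapped.

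Nearly all members were expressed. A mean of at least 1 TPM was reached by 43 of 44, the exception being *Tulp1*, a photoreceptor tubby-like gene, at 0.25 and 0.15 TPM in the controls against 0.23 and 0 TPM in the labelled KO libraries. Mean levels of the other members described here ran from 7.22 TPM for *Nphp4* to 391 TPM for *Arl3*. The summed level of all members was 4902 and 3446 TPM in controls 1 and 2, and 3849 and 4483 TPM in the labelled KO libraries 1 and 2. Both sums of the labelled KO libraries lay between those of the controls.

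**Figure D1:**
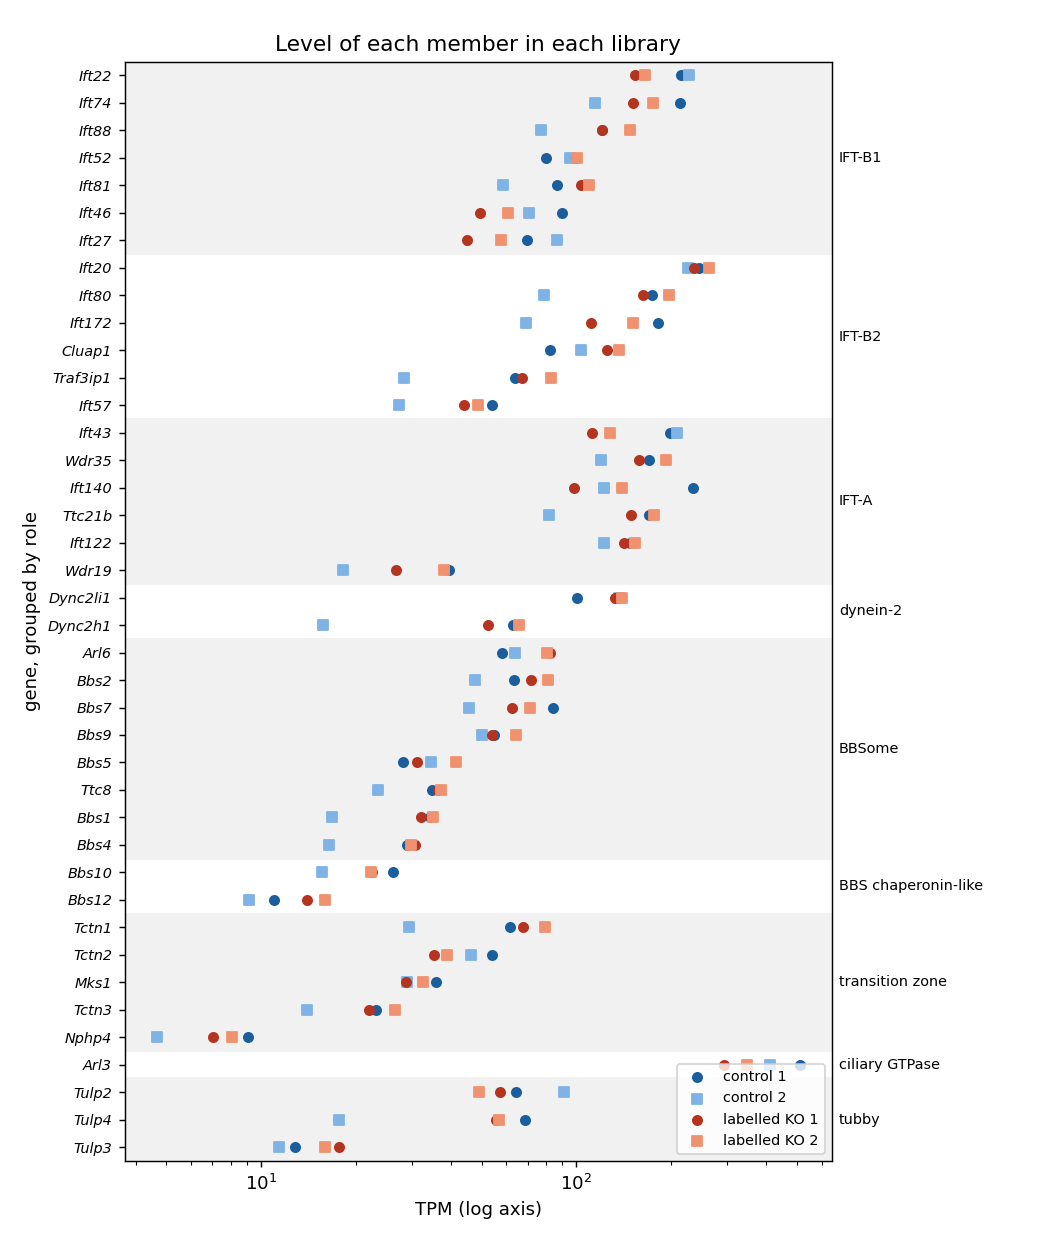
TPM (log axis) of 40 tested members in each of the 4 libraries, grouped by role and ordered by mean level within a role; blue points are controls, red points are libraries labelled *Zfp541* KO, circles are replicate 1 and squares replicate 2. Control 2 is below control 1 for 31 of these 40 genes.

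No member passed an FDR of 0.05 in limma, fitted to log2(TPM + 1) over the 14512 genes whose mean reached 1 TPM, where 0 genes (0%) passed. The smallest adjusted p from limma was 0.310, both over all genes and among the members. At an unadjusted p under 0.05, 1 member was higher, against 10.7% of all genes, and 1 was lower, *Ift43*, against 3.73% of all genes. The members' median log2 fold change was 0.24 and that of all genes 0.28, on the scale of labelled KO minus control. Without control 1 these medians were 0.54 and 0.44, and without control 2 they were -0.00186, with 21 of 43 members positive, and 0.15. Values above 0 were found for 33 of 43 members (76.7%) and for 69.0% of all genes. Since most genes tilted this way, the tilt of the members was close to that of the whole table, and it depended on the scaling. After quantile normalization 25 of 43 members and 55.8% of all genes were positive. After median-ratio scaling the members' median was -0.07, with 19 of 43 positive, and that of all genes -0.01, with 49.5% positive. The series describes separate testes but few of them, so p-values measure the spread between 2 samples a group, and an exact two-sided permutation test of 2 against 2 cannot go below 0.33.

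Counted without a test, 13 members were higher in both libraries labelled KO than in both controls (30.2% of those tested, against 38.6% of all genes), and 7 were lower (16.3%, against 12.1%). The 23 others overlapped. The 7 lower members were *Ift43*, *Ift27*, *Ift46*, *Ift22*, *Arl3*, *Tulp2* and *Tctn2*, and all 7 kept this order after median-ratio scaling, quantile normalization and a correction for transcript length. Of the 13 higher members, 4 kept theirs in all of these settings, *Ift81* and *Bbs2* among them. Over all genes, the share lower was 22.4%, 19.4% and 21.4% in these settings, and the share higher 23.0%, 27.8% and 22.3%. The settings thus moved the whole table downward, so a lower order was easier to keep than a higher one. How many of all genes kept their order was not counted.

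**Figure D2:**
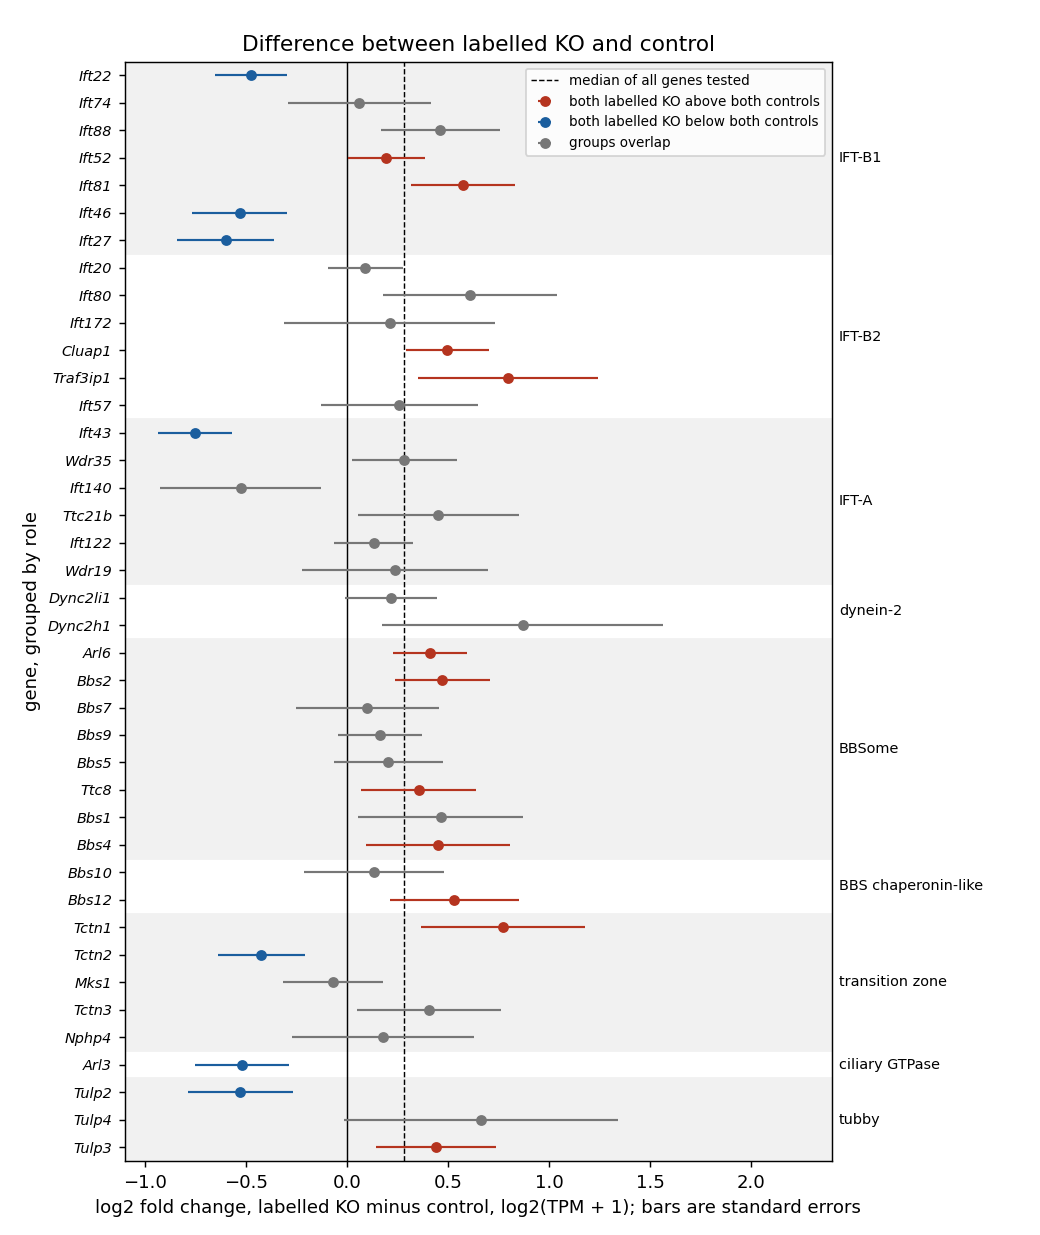
Log2 fold change of 40 tested members, labelled *Zfp541* KO minus control on the log2(TPM + 1) scale, with limma standard errors; red marks genes with both labelled KO libraries above both controls, blue both below, grey an overlap, and the dashed line is the median of all genes, 0.28. The 7 lower members lie between -0.75 and -0.43, and the widest bars belong to *Dync2h1* and *Tulp4*.

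Within IFT-B1, the core of the anterograde complex, 3 of 7 members were lower (against 12.1% of all genes), 2 higher (against 38.6%), and 2 overlapped, with a group median of 0.06 that turned to -0.26 after median-ratio scaling and to -0.38 without control 2. *Ift22*, which encodes a Rab-like small GTPase of the complex (chr5:136908150-136915404, plus strand, mm10), was at 215 and 228 TPM in the controls against 153 and 165 TPM in the labelled KO libraries. Both labelled KO values were thus below both control values, with a log2 fold change of -0.48 (standard error 0.18) and an adjusted p of 0.347 in limma. *Ift27* encodes the other Rab-like GTPase of IFT-B, which links the train to BBSome exit from the cilium (chr15:78159463-78174107, minus strand). Its level was 69.9 and 86.6 TPM in the controls against 45.0 and 57.7 TPM in the labelled KO libraries, a log2 fold change of -0.60 (standard error 0.24, limma adjusted p = 0.363). *Ift46*, whose product joins the IFT-B core and takes part in the import of outer dynein arms, was at 89.8 and 70.8 TPM in the controls against 49.4 and 60.8 TPM in the labelled KO libraries. Its log2 fold change was -0.53 (standard error 0.24, limma adjusted p = 0.387).

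The other core subunits did not share this order. *Ift81*, which with IFT74 binds tubulin, was at 86.7 and 58.4 TPM in the controls against 103 and 109 TPM in the labelled KO libraries. This was a log2 fold change of 0.57 (standard error 0.26, limma adjusted p = 0.391). Its binding partner *Ift74* held 213 and 115 TPM in the controls, and its labelled KO values, 151 and 175 TPM, lay between these. *Ift52*, a scaffold subunit, was at 80.1 and 95.6 TPM in the controls against 99.7 and 101 TPM in the labelled KO libraries, a gap smaller than that between the controls. *Ift88*, the subunit of the classic polycystic kidney mutant, was at 121 and 77.2 TPM in the controls against 121 and 147 TPM in the labelled KO libraries.

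The IFT-B2 genes encode the peripheral arm of the complex, which contacts kinesin-2. All 6 had a positive log2 fold change, with a median of 0.38 that was 0.06 after median-ratio scaling, and 2 of the 6 were higher without overlap, against 38.6% of all genes. The median was 0.82 without control 1 and 0.0379 without control 2. *Cluap1*, which encodes the IFT38 subunit, was at 82.4 and 103 TPM in the controls against 125 and 137 TPM in the labelled KO libraries. Of its annotated exon bases, 22.4% are shared with *Gm20695* on the same strand and 16.1% with *1700016D08Rik* on the other, so its level is uncertain. *Traf3ip1*, which encodes the microtubule-binding IFT54, was at 63.9 and 28.3 TPM in the controls against 67.0 and 83.3 TPM in the labelled KO libraries, a log2 fold change of 0.80 (standard error 0.44, limma adjusted p = 0.459). The controls of *Traf3ip1* differed 2.25-fold, so its order rests on a small gap to control 1, and the log2 fold change was 1.37 without control 1 and 0.22 without control 2.

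*Ift20*, whose product also sits at the Golgi and sorts ciliary cargo there, was at 244 and 226 TPM in the controls against 237 and 264 TPM in the labelled KO libraries. The groups overlapped, with a log2 fold change of 0.09 (standard error 0.19, limma adjusted p = 0.837) that became -0.23 after median-ratio scaling. *Ift172*, the largest IFT-B subunit, was at 181 and 69.0 TPM in the controls against 111 and 151 TPM in the labelled KO libraries. Its log2 fold change of 0.21 (standard error 0.52, limma adjusted p = 0.869) was smaller than the gap between its controls, and was -0.11 after median-ratio scaling. *Ift80* was at 174 and 78.8 TPM in the controls against 162 and 197 TPM in the labelled KO libraries. *Ift57* was at 54.2 and 27.3 against 43.9 and 48.8 TPM, so that in both genes control 2 alone stood low.

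*Ift43* was the member with the smallest p. It encodes a small peripheral subunit of IFT-A (chr12:86082541-86162459, plus strand), and was at 198 and 209 TPM in the controls against 112 and 128 TPM in the labelled KO libraries. The controls differed by less than the labelled KO libraries did, and the mean was 203 ± 7.55 TPM (SD, n = 2) for the controls and 120 ± 11.2 TPM (SD, n = 2) for the labelled KO libraries. The log2 fold change was -0.75 (standard error 0.18, unadjusted p = 0.0125, adjusted p = 0.310 in limma).

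The other 5 IFT-A genes overlapped between groups, and the IFT-A median of 0.19 turned to -0.13 after median-ratio scaling, to -0.30 after the length correction and to -0.18 without control 2. *Ift140*, a core subunit, was at 234 and 122 TPM in the controls against 98.5 and 139 TPM in the labelled KO libraries. *Ift122*, also of the core, was at 148 and 123 TPM in the controls against 142 and 153 TPM in the labelled KO libraries, and *Wdr35*, encoding IFT121, was at 171 and 119.7 against 158 and 192 TPM. *Ttc21b*, encoding IFT139, was at 169 and 82.1 TPM in the controls against 148 and 176 TPM in the labelled KO libraries. *Wdr19*, encoding IFT144, was the lowest of the complex, at 39.4 and 18.2 against 26.7 and 38.1 TPM. *Ift43* was thus the sole IFT-A gene whose groups did not overlap as deposited.

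Of dynein-2, the retrograde motor, the rule held the heavy chain and a light intermediate chain. *Dync2h1*, the heavy chain (chr9:6928503-7184446, minus strand), was at 63.0 TPM in control 1, 15.8 TPM in control 2, and 52.5 and 65.7 TPM in the labelled KO libraries. Its controls differed 3.999-fold, the widest gap among the tested members, and its log2 fold change of 0.87 had a standard error of 0.70 (limma adjusted p = 0.584). Without control 2 the log2 fold change was -0.10. *Dync2li1*, the light intermediate chain, was at 100.1 and 137 TPM in the controls against 133 and 140 TPM in the labelled KO libraries, with control 1 rather than control 2 the lower.

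The BBSome genes lay in a narrow band of levels, with means from 26.5 to 71.2 TPM. All 8 had a positive log2 fold change, from 0.10 to 0.47, with a median of 0.38 that was 0.06 after median-ratio scaling and 0.16 after the length correction. Both labelled KO values were above both controls in 4 of the 8, against 38.6% of all genes. Without control 2 the median was 0.0889. *Bbs2*, part of the BBSome core with BBS7 and BBS9, was at 63.2 and 47.5 TPM in the controls against 71.9 and 81.2 TPM in the labelled KO libraries. *Arl6*, the small GTPase that recruits the BBSome to membranes, was at 58.1 and 64.0 TPM in the controls against 82.2 and 80.7 TPM in the labelled KO libraries. The remaining such genes, *Bbs4* at 29.1 and 16.4 against 30.7 and 29.8 TPM and *Ttc8* at 34.8 and 23.5 against 36.5 and 37.2 TPM, were separated from control 1 by a smaller margin than control 1 was from control 2.

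*Bbs1*, the subunit that binds ARL6, was at 34.4 and 16.8 TPM in the controls against 32.1 and 35.1 TPM in the labelled KO libraries. *Bbs7* was at 84.5 and 45.6 against 62.4 and 71.1 TPM, and *Bbs9* was at 54.9 and 50.2 against 53.8 and 64.3 TPM. *Bbs5*, a subunit with lipid-binding domains, was at 28.1 and 34.5 against 31.3 and 41.4 TPM. These 4 overlapped. The chaperonin-like genes *Bbs10* and *Bbs12*, whose products help to assemble the BBSome, had lower mean levels than any subunit. *Bbs12* was at 11.01 and 9.18 TPM in the controls against 14.02 and 16.0 TPM in the labelled KO libraries, a log2 fold change of 0.53 (standard error 0.32, limma adjusted p = 0.486). *Bbs10* was at 26.2 and 15.6 against 22.4 and 22.3 TPM and overlapped.

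Of the transition zone genes, the 3 tectonics, membrane and secreted proteins of the gate, differed in direction. *Tctn1* was at 61.3 and 29.4 TPM in the controls against 67.9 and 79.4 TPM in the labelled KO libraries, with a log2 fold change of 0.77 (standard error 0.41, limma adjusted p = 0.436). This was 1.29 without control 1 and 0.26 without control 2, and the groups overlapped after median-ratio scaling and after the length correction. *Tctn2* was at 54.1 and 46.4 TPM in the controls against 35.4 and 38.9 TPM in the labelled KO libraries, a log2 fold change of -0.43. *Tctn3* was at 23.2 and 13.9 against 21.9 and 26.6 TPM and overlapped, as did *Mks1*, a gate subunit, at 35.9 and 29.0 against 28.8 and 32.6 TPM. *Nphp4*, another gate subunit, was at 9.08 and 4.67 against 7.03 and 8.08 TPM. The median over the 7 transition zone members, 0.18, was -0.10 after median-ratio scaling, -0.24 after the length correction and -0.22 without control 2. Of the annotated exon bases of *Tctn1*, 19.0% are shared with *Hvcn1* on the other strand. Whether reads were counted by strand is not given in the sources used here, so reads of the shared bases cannot be told apart.

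*Arl3* encodes a small GTPase that releases lipid-modified cargo inside the cilium (chr19:46531096-46573198, minus strand). It was the most abundant of the members described here, at 511 and 412 TPM in the controls against 293 and 349 TPM in the labelled KO libraries, a log2 fold change of -0.52 (standard error 0.23, limma adjusted p = 0.387).

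The tubby-like genes also divided. *Tulp2*, known for its expression in testis, was at 64.4 and 91.3 TPM in the controls against 57.1 and 49.0 TPM in the labelled KO libraries, a log2 fold change of -0.53 (standard error 0.26, limma adjusted p = 0.413). Exons of *Dhdh* on the other strand share 12.3% of its exon bases, so its level is uncertain in the same way as that of *Tctn1*. *Tulp3*, which with IFT-A brings receptors into the cilium, was at 12.8 and 11.4 TPM in the controls against 17.7 and 15.9 TPM in the labelled KO libraries. *Tulp4* was at 68.9 and 17.6 TPM in the controls, a 3.90-fold gap, against 55.5 and 56.7 TPM in the labelled KO libraries. Its log2 fold change of 0.66 (standard error 0.68, limma adjusted p = 0.665) was -0.29 without control 2.

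**Figure D3:**
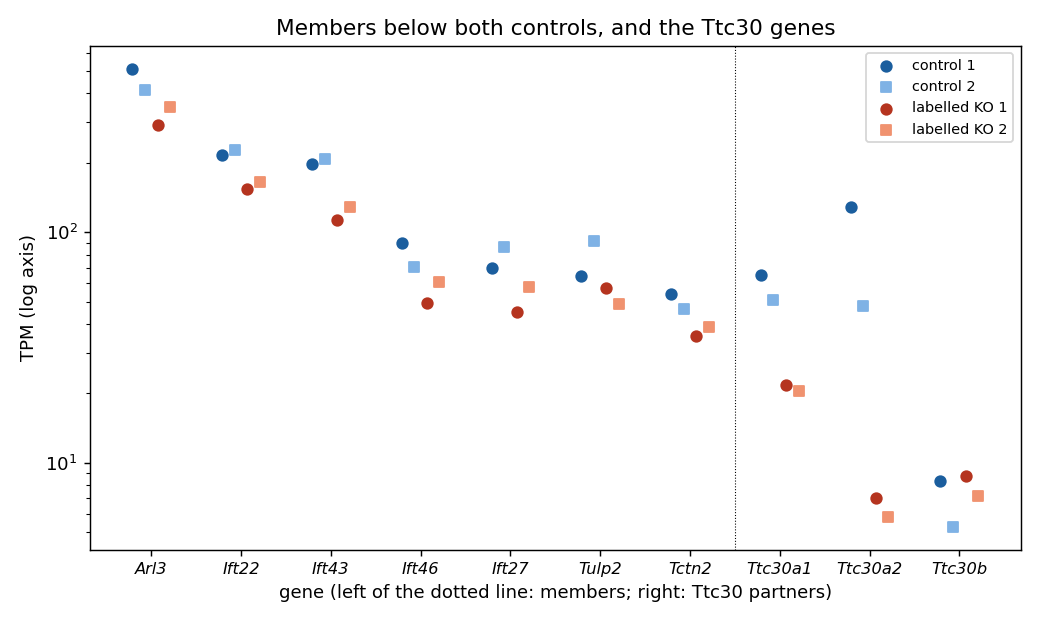
TPM (log axis) in each library of the 7 members that were lower in both labelled KO libraries than in both controls, and of the Ttc30 partner genes to the right of the dotted line; blue points are controls and red points labelled KO, circles replicate 1 and squares replicate 2. *Ift43* and *Ift22* show controls within a few percent of each other, and *Ttc30a2* shows the widest separation, from 128.9 and 47.7 TPM to 7.01 and 5.82 TPM.

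The calls depended on single control libraries. With control 1 left out, 19 members passed the FDR as higher and 4 as lower, against 38.7% and 9.47% of all genes. With control 2 left out, 4 were higher and 2 lower, against 15.5% and 12.9% of all genes. Both fits have 1 control library, which limma assumes to vary as the labelled KO pair does. *Ift43* was called in both fits, with a log2 fold change of -0.79 without control 1 and -0.72 without control 2. Its log2 fold change was -0.66 with labelled KO library 1 left out and -0.85 with labelled KO library 2 left out. When either library labelled KO was left out, no gene of the whole table was called, member or not.

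The distance between the 2 controls followed transcript length. Control 2 was below control 1 for 34 of 43 members and for 9581 of all 14512 genes. The median difference on the log2 scale was -0.55 for the members, against -0.36 over all genes. By the longest annotated transcript, the median difference was 0.21 in the 8 members under 2000 nt, -0.48 in the 20 from 2000 to 4000 nt, -0.82 in the 10 from 4000 to 6000 nt and -1.13 in the 5 longer ones. Over all genes the median difference in the same classes was 0, -0.28, -0.52 and -0.74, so the trend was not particular to the members. Across the 43 members this difference and log2 length had Pearson's r = -0.75, against -0.16 across all genes with a length, as a description over genes that share the same libraries.

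Among the members, a weaker tilt of the opposite sign was present between labelled KO and control. Over all genes this tilt was stronger than that between the controls (r = 0.27 against -0.16). Both differences use the same control libraries, so they are not independent. The median log2 fold change of the members was 0.15, 0.23, 0.37 and 0.61 in these classes from short to long, beside -0.04, 0.24, 0.45 and 0.66 for all genes in the same classes. Across members, r with log2 length was 0.47, against 0.27 across all genes with a length. The median length was 2153 nt for the 7 lower members, 3064 nt for the 13 higher ones and 4226 nt for those that overlapped. After a length correction, a loess of each library's deviations on log2 length chosen after the data were seen, 8 members were higher (against 22.3% of all genes) and 11 lower (against 21.4%). The correction moved the log2 fold change of *Dync2h1* to 0.01 and that of *Ift140* to -1.12, with both labelled KO values of *Ift140* then below both controls.

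**Figure D4:**
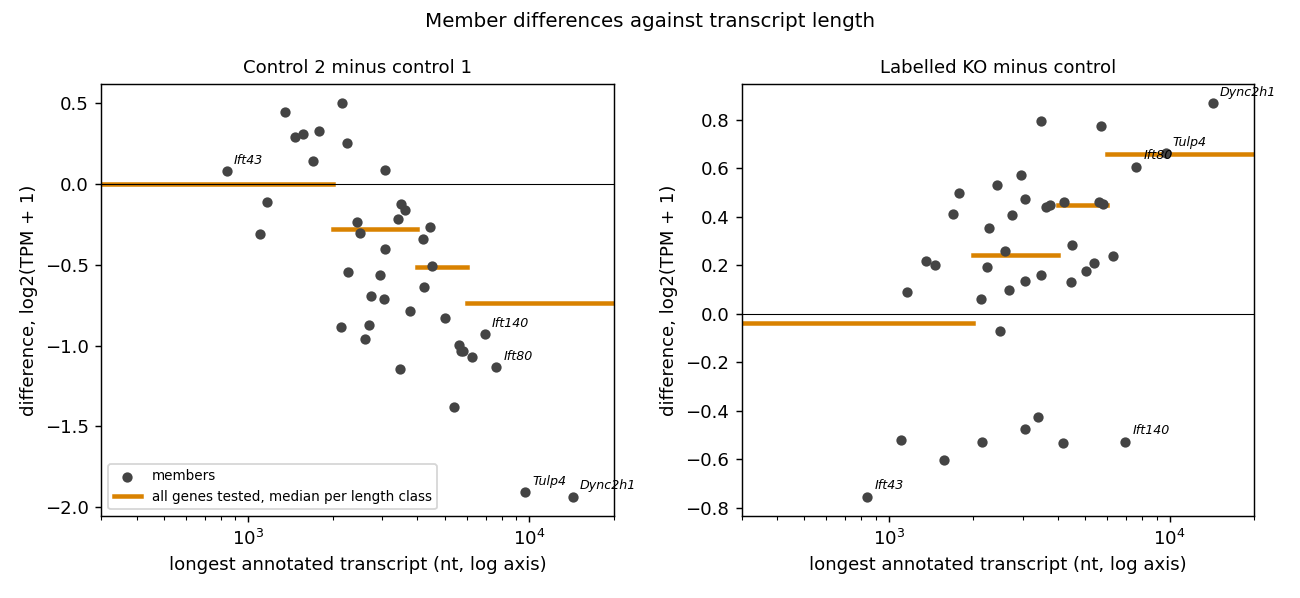
Difference in log2(TPM + 1) of 40 tested members against the longest annotated transcript (nt, log axis), between the 2 controls at left and between labelled *Zfp541* KO and control at right; dots are members and orange lines are medians of all genes tested in each length class. At left the members run from above 0 for short transcripts to below -1.9 for *Tulp4* and *Dync2h1*, and at right *Ift43* lies lowest at -0.75 and *Dync2h1* highest at 0.87.

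Genes that work with the members but fall outside the symbol rule were listed by role, 40 in all, and all 40 were tested. Their median was 0.25, with 28 positive and 12 negative, 12 higher (against 38.6% of all genes) and 5 lower (against 12.1%) without overlap. At an unadjusted p under 0.05, 1 was higher (against 10.7% of all genes) and 2 were lower (against 3.73%), and none passed the FDR in limma. The 2 lower ones were *Ttc30a1* and *Ttc30a2*, which encode IFT70, an IFT-B subunit. *Ttc30a2* was at 128.9 and 47.7 TPM in the controls against 7.01 and 5.82 TPM in the labelled KO libraries, 13.8-fold lower by the means, with a log2 fold change of -3.43 (standard error 0.55, limma adjusted p = 0.310). *Ttc30a1* was at 65.3 and 50.9 against 21.7 and 20.4 TPM, a log2 fold change of -1.41 (standard error 0.24, limma adjusted p = 0.310). The third gene, *Ttc30b*, was at 8.34 and 5.28 against 8.79 and 7.18 TPM and overlapped. These genes are near copies, so how RSEM divided shared reads between them makes each single value uncertain.

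The higher partner was *Kifap3*, the cargo-binding subunit of kinesin-2, at 49.2 and 41.6 TPM in the controls against 72.5 and 82.4 TPM in the labelled KO libraries (log2 fold change 0.76, standard error 0.21, limma adjusted p = 0.315). The motor subunit *Kif3a* was at 64.4 and 41.2 against 71.8 and 82.1 TPM. *Hspb11*, encoding IFT25, the partner of IFT27, was at 134 and 145 TPM in the controls against 179 and 181 TPM in the labelled KO libraries. Its log2 fold change was 0.37 (standard error 0.17, limma adjusted p = 0.404), beside a median of 0.28 over all genes. As deposited, this pair thus lay on opposite sides, though 38.6% of all genes were higher in the same way as *Hspb11*. Of the 15 gate partners, 10 had a positive log2 fold change and 5 a negative one, with a median of 0.27. *Cep290*, the largest positive, was at 54.7 and 17.6 against 69.3 and 91.5 TPM (log2 fold change 1.33, standard error 0.59, limma adjusted p = 0.387). Its gap to control 1 was smaller than that between the controls. *Ahi1*, the largest negative, was at 96.8 and 29.3 against 27.0 and 34.3 TPM and overlapped (log2 fold change -0.79).

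As a comparison, genes of the axoneme, the dynein arms, radial spokes and cilia- and flagella-associated proteins that form the moving core of the flagellum, were taken by symbol. Of 45 in the files, 41 were tested. Their median log2 fold change was -0.88, beside 0.24 for the members, and 36 of 41 were negative, beside 10 of 43 members. In 19 of the 41 both labelled KO values were below both controls (against 12.1% of all genes), and in 1 above (against 38.6%). Control 2 was also far below control 1 in the axonemal genes, by a median of -1.83, beside -0.55 for the members. Against control 1, the axonemal medians were -2.41 and -1.53 in labelled KO libraries 1 and 2. Against control 2 they were -0.24 and 0.08. For the members these medians were -0.10 and 0.06 against control 1, and 0.49 and 0.64 against control 2. The difference between the lists was not tested.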

How the data were processed

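GFP-positive testicular cells were profiled by single-end RNA-seq in 2 control and 2 labelled *Zfp541* KO libraries. Per the labels and the submitters' processing notes, the authors used Trim Galore 0.5.0, cutadapt 1.16, STAR 2.6.0a and RSEM 1.3.1 with mm10, and deposited TPM per gene. TPM keeps no depth, so counting error cannot be given. The study's own differential analysis with RSEM was not repeated. A date stood where the symbol should be in 27 rows, which were left unnamed.

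Groups came from the sample labels. Genes whose mean reached 1 TPM were fitted as log2(TPM + 1) by genotype in R 4.3.3 with limma 3.58.1 (mean-variance trend, two-sided, Benjamini-Hochberg over all 14512 genes, FDR 0.05), and the procedure was tested on simulated data. A fold change on this scale understates that of low genes. The members and lists were chosen with earlier results of these data known. Full statistics were given for members past the FDR, the 6 largest positive and 6 largest negative changes among members whose groups did not overlap, the 4 most abundant members and the 3 with the widest gap between controls. Of the 44 members, 3 enter the counts, sums and medians but are not reported here one by one, nor drawn. *Zfp541* and *Rec8* were checks of the labels and the sort. *Ift140*, *Cep290* and the partner genes printed were named after their values were seen. Gene positions and the longest transcript came from GENCODE M21 (length found for 95.9% of genes tested and 43 of 43 members). Promoter windows came from RefSeq, GRCm38.p6.

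Replicate numbers came from the sample titles, and nothing says that they mark litters. Alternatives covered the pseudocount, filter, scaling, variance trend, replicate block, transcript length and leaving out each library.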

Additional observations from a re-analysis of the deposited data

How the results depend on the processing

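The comparison has 2 libraries a group and the depth is unknown. Leaving out 1 library assumes that the lone library varies like the other group. No member was called under the other pseudocounts, filters, scalings or variance model, nor in the fits with a block or the length correction.

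Over all genes, the fit with no filter called 1 higher and 1 lower. With the replicate number as a block, 0 genes were called. The pairing had no support in the labels, and deviations of same-numbered libraries correlated at -0.16 across 14512 genes. With the numbers crossed, chosen after seeing the data, 7 genes were higher and 80 lower, and 0 members. Leaving out 1 library gave 0 to 5610 genes higher and 0 to 1875 lower, and 0 to 19 members higher and 0 to 4 lower.

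Members without overlap numbered 6 higher (against 23.0% of all genes) and 11 lower (against 22.4%) after median-ratio scaling, 7 higher (against 27.8%) and 9 lower (against 19.4%) after quantile normalization, and 8 higher (against 22.3%) and 11 lower (against 21.4%) after the length correction. Leaving out 1 library gave 13 to 32 higher (against 42.9% to 65.8% of all genes) and 7 to 18 lower (against 15.6% to 36.0%).

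Median log2 fold changes after median-ratio scaling were 0.0644 for the BBSome, 0.027 for the chaperonin-like genes, -0.26 for IFT-B1, -0.0579 for the partners and -0.00707 for all genes, with 49.5% of all genes positive against 69.0% as deposited. After quantile normalization they were 0.11 for the BBSome, -0.00202 for the partners and 0.0774 for all genes, with 55.8% positive. With the length correction, and identically with the block and the length correction, they were -0.30 for IFT-A, -0.0655 for the tubby-like genes, -0.0586 for the partners and 0.0114 for all genes, with 50.8% positive. With no filter the median of all genes was 0.0184. Leaving out 1 library gave medians of -0.00186 to 0.54 for all members, 0.0379 to 0.82 for IFT-B2, -0.18 to 0.40 for IFT-A, 0.17 to 0.92 for dynein-2, 0.095 to 0.57 for the chaperonin-like genes, -0.22 to 0.59 for the transition zone, 0.0889 to 0.58 for the BBSome, -0.38 to 0.16 for IFT-B1, -0.28 to 0.52 for the tubby-like genes and -0.00126 to 0.36 for the partners.

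Among single genes, *Ift172* turned to -0.11 with median-ratio scaling and to -0.28 after correcting for length, block or no block. *Ift20* turned to -0.23 with median-ratio scaling and *Tulp4* to -0.0655 after correcting for length, block or no block. Leaving out 1 library gave -0.10 to 1.84 for *Dync2h1*, -0.48 to 0.90 for *Ift172* and -0.29 to 1.62 for *Tulp4*. The cause of these shifts was not tested.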

Other observations

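The RFX factors that read the X-box and other regulators of ciliary genes were at uneven levels. *Rfx3* was at 3.54 and 2.64 TPM in the controls against 8.53 and 8.40 TPM in the labelled KO libraries, a log2 fold change of 1.22 (standard error 0.38, unadjusted p = 0.0284, adjusted p = 0.320 in limma). *Rfx1* was at 8.63 and 8.42 against 16.9 and 16.1 TPM, with a log2 fold change of 0.88 (standard error 0.31). Neither passed the FDR over all genes. *Rfx2*, the most abundant of the family here, was at 184 and 58.8 TPM in the controls against 98.9 and 119 TPM in the labelled KO libraries, and *Rfx4* was at 51.5 and 17.6 against 25.3 and 34.03 TPM, so that both overlapped and control 2 was the lowest. *Foxj1*, a regulator of motile cilia, was between 1.71 and 2.63 TPM in all 4 libraries. *Mcidas*, *Gmnc* and *Myb*, which act in multiciliated cells or upstream of them, were below 1 TPM in each library, with *Gmnc* listed at 0 in 3 of the 4. The 6 markers of rete testis and efferent duct, the ciliated epithelium nearest to the tubules, summed to 7.46 and 4.98 TPM in the controls and to 5.88 and 3.93 TPM in the labelled KO libraries.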
